A study of Cricetulus griseus with 6 samples.

Results

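The genes described here build, trim and cap N-glycans, the sugar chains that are attached to asparagine residues of secreted and membrane proteins, and include the genes that make, transfer and remove sialic acid. Their members were given as a list of 58 gene symbols, and a gene was measured if at least 1 transcript cluster of the array was annotated to its symbol alone. This held for 52 genes with 58 transcript clusters, out of 29700 clusters and 14899 genes with such a cluster in all. Where a gene had several clusters (6 members), the cluster with the highest mean signal over the 6 arrays was used. Dpagt1, Man1b1, B4galt1, B4galt6, Gmds and St3gal1 had no cluster of their own and were not analysed here. The 52 genes were placed in 10 steps by the textbook role of each enzyme or transporter, and the differences between arrays played no part in that.

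The transcripts were read with the CHO Gene ST array of Affymetrix, and each of 6 conditions had 1 array. In CHO-K6, a Chinese hamster ovary line that stably overexpresses human HER2, the conditions were trastuzumab alone, pertuzumab alone, both antibodies together (the combination) and no antibody (untreated). In the wild type line CHO-K1, they were the combination and no antibody. Each antibody, which binds human HER2, was given at 10 µg/mL for 24 h to cells that had been kept in low serum beforehand. The antibodies were added in fresh medium with a higher serum content. According to the methods, CHO-K6 was kept under G418 selection. The arrays hold a single line with human HER2, so the transgene, the selection and other differences between the lines cannot be told apart. The values are log2 signals, and a difference of 1 on this scale is 2-fold. With 1 array per condition no difference has a replicate check, no p-value is given, and every count below describes these arrays only.

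Array medians lay between 5.89 and 5.91 on the log2 scale, with 48.8% to 49.0% of clusters at 6 or more. Of the 52 members, 47 had a log2 signal of 6 or more on all arrays and 4 stayed below 6 on all of them. The signal of the hamster Erbb2 cluster was 8.80 to 9.21 on the CHO-K6 arrays and 8.50 to 8.64 on the CHO-K1 arrays, and it was not tested how far this cluster reads the human transcript. The labels call both lines epithelial, but none of the 5 measured epithelial markers reached 6 on all arrays. Krt8, Krt18, Epcam and Ocln stayed below 6 on every array, and Cdh1 lay at 5.86 to 6.49. Of 6 mesenchymal markers, 4 reached 6 on all arrays, with vimentin (Vim) at 13.19 to 13.30. Cdh2 (5.09 to 5.40) and Col1a1 (5.78 to 6.12) did not.

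As background, an N-glycan is first built on the lipid dolichol in the membrane of the endoplasmic reticulum and is moved as a block onto the growing protein by the oligosaccharyltransferase complex. Glucose and mannose residues are then trimmed away, antennae are started by N-acetylglucosaminyltransferases in the Golgi apparatus, and galactose, fucose and sialic acid are added from nucleotide sugars that transporters bring in. CHO cells are widely used to make therapeutic glycoproteins, and are known for glycans without bisecting N-acetylglucosamine, without the sialic acid linkage that St6gal1 makes, and with little N-glycolylneuraminic acid, the sialic acid that Cmah gives rise to.

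In untreated CHO-K6 cells against untreated CHO-K1 cells, 1 of the 52 members differed 2-fold or more (1.92%), beside 2.1% of all clusters. This was Cmah, which encodes the hydroxylase that turns CMP-N-acetylneuraminic acid into CMP-N-glycolylneuraminic acid. In bulk RNA such as this, fewer cells with a transcript and less of it per cell cannot be told apart. Between the combination arrays of the lines, which share no array with the untreated pair, 2 members differed 2-fold (3.85%, beside 3.02% of all clusters), Cmah upward and Mogs downward. At 1.5-fold, 5 members differed between the untreated arrays (9.62%, beside 9.64%) and 8 between the combination arrays (15.4%, beside 12.1%). The members' shares thus lay close to those of all clusters, and the median difference over the members was −0.06 between the untreated arrays and −0.07 between the combination arrays, beside −0.03 and −0.05 over all clusters. The antibodies gave no 2-fold difference in any member.

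All 4 CHO-K6 arrays lay above both CHO-K1 arrays for 12 members and below them for 12 members (23.1% each), beside 15.9% and 21.1% of all clusters and 25.3% and 26.1% of the 9095 brighter genes, whose log2 signal averaged at least 6 over the arrays. A gap of 0.3 or more between the nearest arrays of the lines was found for 2 members above and 5 below (3.85% and 9.62%), beside 4.23% and 3.53% of all clusters and 6.93% and 6.08% of the brighter genes. Those above were Cmah and Man1a1, and those below were Alg5, Mogs, Fut11, Slc35c1 and St3gal4. The arrays of a line differ in treatment and are not replicates.

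**Figure D1:**
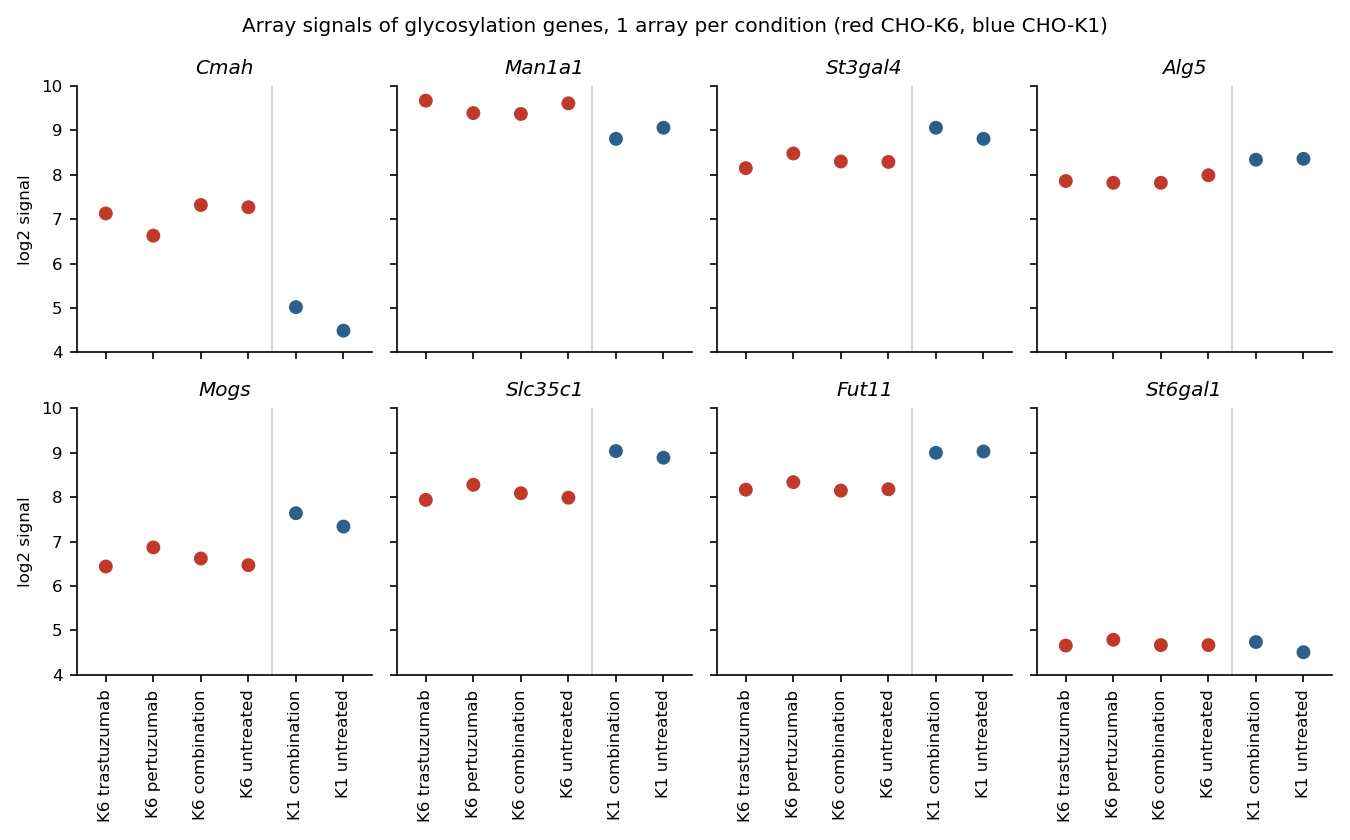
Log2 signal (vertical axis) on each of the 6 arrays for the 7 members with a gap of 0.3 or more between the lines and for St6gal1, with CHO-K6 arrays in red and CHO-K1 arrays in blue and 1 point per array. Cmah lies between 6.63 and 7.32 on the CHO-K6 arrays and at 5.02 and 4.49 on the CHO-K1 arrays, while St6gal1 stays between 4.51 and 4.79 on all arrays.

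In the sialic acid supply step, Cmah had a log2 signal of 7.13 with trastuzumab, 6.63 with pertuzumab, 7.32 with the combination and 7.27 untreated in CHO-K6, against 5.02 with the combination and 4.49 untreated in CHO-K1. The lowest CHO-K6 array was 1.61 above the highest CHO-K1 array. The line difference was 2.78 between the untreated arrays and 2.30 between the combination arrays, and 0.135% and 0.212% of all clusters differed as much or more in these pairs. A further Cmah cluster had 6.17, 6.21, 6.54 and 6.35 in CHO-K6 in the same order of treatments, against 4.37 with the combination and 4.54 untreated in CHO-K1, with line differences of 1.81 untreated and 2.17 with the combination. Both Cmah clusters thus lay apart between the lines, by gaps of 1.61 and 1.63, and both CHO-K1 arrays stood below the median of all clusters for them, so the size of the difference in transcript level is uncertain.

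Slc35a1, the transporter that carries CMP-sialic acid into the Golgi apparatus, had 8.75, 8.49, 8.80 and 8.80 in CHO-K6 with trastuzumab, pertuzumab, the combination and no antibody, against 8.32 with the combination and 8.34 untreated in CHO-K1. Its line difference was 0.46 between the untreated and 0.48 between the combination arrays. The enzymes that make sialic acid itself differed less and in no common direction. Gne, whose product carries out the first steps of the route, had a line difference of 0.08 untreated and −0.06 with the combination, and its signals overlapped between the lines (9.10 to 9.41 in CHO-K6, 9.05 and 9.22 in CHO-K1). Nans, the synthase that condenses the sugar with phosphoenolpyruvate, lay below CHO-K1 on all 4 CHO-K6 arrays, by −0.34 between the untreated arrays. Nanp, the phosphatase that follows, differed by 0.18, and Cmas, which couples sialic acid to CMP, by −0.09.

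Among 8 measured sialyltransferases, 5 were lower in CHO-K6 between the untreated arrays and 7 between the combination arrays, with step medians of −0.10 and −0.18. Of all clusters, 53.2% and 56.4% were lower in these pairs. St3gal4, which caps galactose ends of glycoproteins, had 8.15 with trastuzumab, 8.48 with pertuzumab, 8.30 with the combination and 8.29 untreated in CHO-K6, against 9.06 with the combination and 8.81 untreated in CHO-K1. No array of the lines overlapped, and the line difference was −0.52 untreated and −0.76 with the combination. St6galnac6 differed by −0.37 and −0.49 and St6galnac4 by −0.24 and −0.20, but the pertuzumab array of CHO-K6 was above at least 1 of the CHO-K1 arrays for both. These enzymes add sialic acid to O-glycans and gangliosides. St3gal5, the GM3 ganglioside synthase, was the 1 member of this step with all CHO-K6 arrays higher, by 0.12 in either pair with a gap of 0.03. St3gal2 (−0.09 and −0.19) and St3gal6 (−0.11 and −0.13) differed little, and St3gal3 had 0.13 untreated and −0.17 with the combination.

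St6gal1 encodes the enzyme of the linkage for which CHO cells are known to be deficient. Its signal was 4.66, 4.79, 4.67 and 4.67 in CHO-K6 with trastuzumab, pertuzumab, the combination and no antibody, against 4.74 with the combination and 4.51 untreated in CHO-K1. It lay below the median of all clusters on every array, and the lines overlapped. The tables hold no detection call, so a low signal is not shown to be absence of the transcript.

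Sialic acid is removed by sialidases, and both members of this step had lower signals in CHO-K6. The lysosomal Neu1 had 9.78, 9.76, 9.65 and 9.58 in CHO-K6 with trastuzumab, pertuzumab, the combination and no antibody, against 10.06 with the combination and 9.93 untreated in CHO-K1, with no overlap. Neu3, which acts on gangliosides at the plasma membrane, had 7.08, 7.57, 7.17 and 7.05 in CHO-K6 in that order, against 7.83 with the combination and 7.51 untreated in CHO-K1. The pertuzumab array alone put Neu3 inside the range of CHO-K1. Their line differences were −0.35 and −0.46 between the untreated and −0.41 and −0.66 between the combination arrays. Of all clusters, 53.2% and 56.4% were lower in these pairs.

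The transporter that brings GDP-fucose into the Golgi apparatus, Slc35c1, had the most negative line difference of all members between the untreated arrays. Its signal was 7.94 with trastuzumab, 8.28 with pertuzumab, 8.09 with the combination and 7.99 untreated in CHO-K6, against 9.04 with the combination and 8.89 untreated in CHO-K1. The differences were −0.90 and −0.95, which 2.99% and 3.57% of all clusters matched or passed. Fut11, of the fucosyltransferase family, was as clearly lower, with 8.17, 8.34, 8.15 and 8.18 in CHO-K6 with trastuzumab, pertuzumab, the combination and no antibody, against 9.0 with the combination and 9.03 untreated in CHO-K1 and a difference of −0.85 in either pair. Fut8, the enzyme of core fucose, lay on the other side, with 9.97, 9.77, 10.02 and 10.03 in CHO-K6 in that order, against 9.57 with the combination and 9.67 untreated in CHO-K1. Its line difference was 0.36 untreated and 0.45 with the combination. Fut10 stayed between 4.42 and 4.62 on all arrays, below the array medians.

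Of the early steps, glucose trimming held the most negative value. Mogs, glucosidase I, which removes the outermost glucose of the newly transferred glycan, had 6.44 with trastuzumab, 6.87 with pertuzumab, 6.62 with the combination and 6.47 untreated in CHO-K6, against 7.64 with the combination and 7.34 untreated in CHO-K1. Every CHO-K6 array was at least 0.47 below both CHO-K1 arrays, and the line difference was −0.87 untreated and −1.02 with the combination. Ganab, the catalytic subunit of glucosidase II, which removes the next glucose residues, differed by −0.21 and −0.27 with overlapping arrays. Uggt1, which puts glucose back on unfolded glycoproteins, differed by −0.02 and −0.03.

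The mannose trimming step went the other way for 4 of 5 members, with a step median of 0.21 between the untreated and 0.34 between the combination arrays. Of all clusters, 45.2% and 42.2% were higher. Man1a1, a Golgi mannosidase of the first trimming round, had 9.67, 9.39, 9.37 and 9.61 in CHO-K6 with trastuzumab, pertuzumab, the combination and no antibody, against 8.81 with the combination and 9.06 untreated in CHO-K1. Man1a2, a related enzyme, had 10.42, 10.16, 10.32 and 10.42 in CHO-K6 in that order, against 9.78 with the combination and 10.01 untreated in CHO-K1. For neither enzyme did the lines overlap, and the line differences were 0.55 and 0.56 for Man1a1 and 0.41 and 0.54 for Man1a2. Man2a1, Golgi mannosidase II, was higher by 0.21 and 0.34, with a further cluster at 0.43 and 0.48, and Man1c1 was higher by 0.10 and 0.19. Man2a2, the close relative of Man2a1, was lower by −0.25 and −0.38, with a gap of only 0.02 between the lines.

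**Figure D2:**
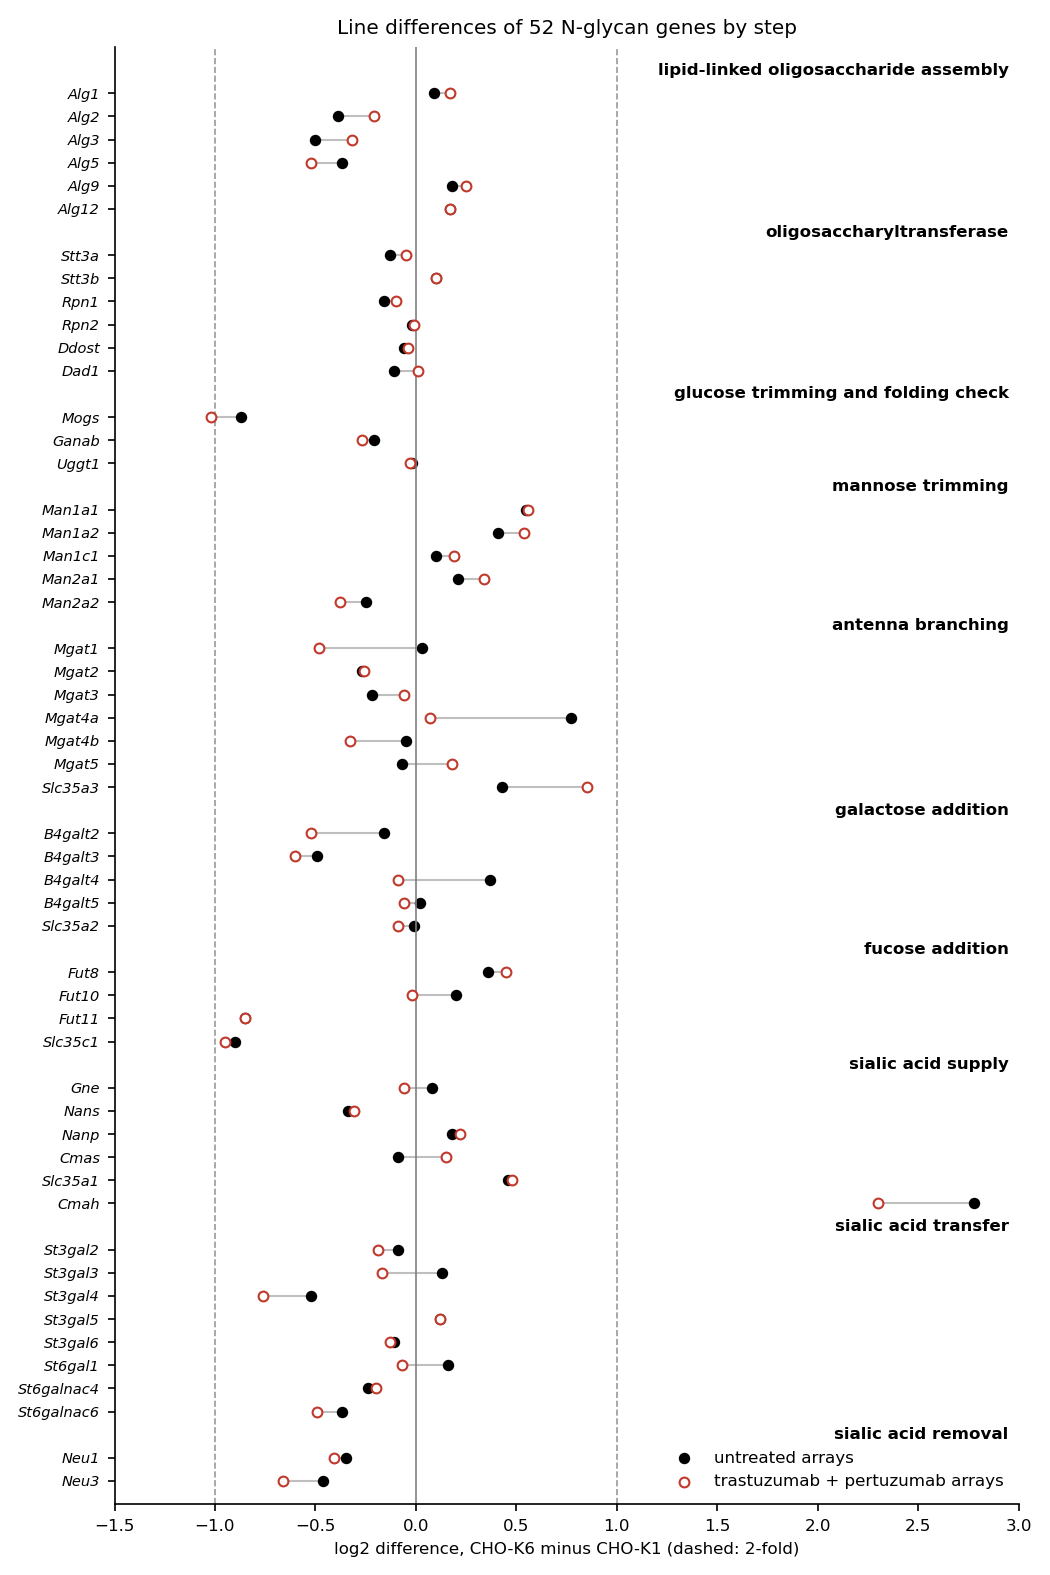
Log2 difference of CHO-K6 minus CHO-K1 (horizontal axis) for each of the 52 members, grouped by step, between the untreated arrays (filled) and between the combination arrays (open), with dashed lines at 2-fold. Cmah lies at 2.78 and 2.30, and 4 of 5 mannose trimming genes lie right of 0, while all 3 genes of glucose trimming and folding check and both sialidases lie left of it.

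Lipid-linked assembly was divided. Alg5, which makes the dolichol-linked glucose donor, had 7.86, 7.82, 7.82 and 7.99 in CHO-K6 with trastuzumab, pertuzumab, the combination and no antibody, against 8.34 with the combination and 8.36 untreated in CHO-K1. It was lower in CHO-K6 by −0.37 and −0.52 with a gap of 0.35 between the lines. Alg2 (−0.39 and −0.21) and Alg3 (−0.50 and −0.32), mannosyltransferases of the early and middle chain, were also lower in both pairs. For Alg3 the pertuzumab array, at 10.34, stood between the CHO-K1 arrays at 10.38 with the combination and 10.28 untreated. Alg9 (0.18 and 0.25) and Alg12 (0.17 in either pair), which add later mannoses, were higher on all CHO-K6 arrays, and Alg1, which adds the first, was higher by 0.09 and 0.17 with overlap.

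All 6 oligosaccharyltransferase subunits lay close to 0. The catalytic subunits Stt3a and Stt3b differed between the untreated lines by −0.13 and 0.10, and the shared subunits Rpn1, Rpn2, Ddost and Dad1 by −0.16, −0.02, −0.06 and −0.11. Between the combination arrays the 6 subunits ranged from −0.10 to 0.10. Dad1, with 12.81, 12.87, 12.77 and 12.66 in CHO-K6 with trastuzumab, pertuzumab, the combination and no antibody, against 12.76 with the combination and 12.77 untreated in CHO-K1, is an example of arrays that overlapped fully.

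For several of the branching genes the line difference depended on which pair of arrays was read. Mgat1, which starts the first antenna and so opens the way to complex glycans, had 7.47, 7.65, 7.43 and 7.63 in CHO-K6 with trastuzumab, pertuzumab, the combination and no antibody, against 7.91 with the combination and 7.60 untreated in CHO-K1. The difference was 0.03 untreated and −0.48 with the combination. Mgat2, which starts the next antenna, was lower in both pairs (−0.27 and −0.26) without overlap, and Mgat4b by −0.05 and −0.33 with a gap of 0.02. Mgat5, which adds a further branch, had −0.07 and 0.18, and its further cluster had 0.28 and 0.29. Slc35a3, the transporter of UDP-N-acetylglucosamine, had 9.29, 8.72, 9.18 and 9.23 in CHO-K6 in that order, against 8.33 with the combination and 8.80 untreated in CHO-K1. Its line differences were 0.43 and 0.85, but the pertuzumab array of CHO-K6 lay below untreated CHO-K1, so the lines overlapped.

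Mgat3, the enzyme of the bisecting residue, and Mgat4a stayed below the array medians. Mgat3 lay at 4.31 to 4.65 in CHO-K6 and at 4.58 with the combination and 4.53 untreated in CHO-K1. Mgat4a had 5.03, 4.63, 4.69 and 5.17 in CHO-K6 with trastuzumab, pertuzumab, the combination and no antibody, against 4.62 with the combination and 4.40 untreated in CHO-K1. Its line difference was 0.77 between the untreated but 0.07 between the combination arrays, whereas its further cluster had 0.83 and 0.88.

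Of the galactose genes, B4galt3 alone lay apart between the lines, with 9.64, 9.85, 9.58 and 9.52 in CHO-K6 with trastuzumab, pertuzumab, the combination and no antibody, against 10.18 with the combination and 10.01 untreated in CHO-K1 and differences of −0.49 and −0.60. B4galt2 differed by −0.16 and −0.52 and B4galt4 by 0.37 and −0.09, and both overlapped. B4galt5 (0.02 and −0.06) and the UDP-galactose transporter Slc35a2 (−0.01 and −0.09) were close to 0. All 5 genes of this step lay below 0 between the combination arrays, as did 56.4% of all clusters, whose median was −0.05.

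With trastuzumab in CHO-K6, no member differed 2-fold or 1.5-fold from the untreated array, beside 0.0976% and 1.31% of all clusters. The differences ranged from −0.16 for Mgat1 to 0.34 for the dim Mgat3, with a median of 0.03. The largest values among brighter members were those of the mannosyltransferase genes Alg3 (0.29) and Alg2 (0.26) and the sialidase gene Neu1 (0.20). Slc35a2, St6galnac6 and Mgat5 followed at 0.19 each.

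With pertuzumab, no member differed 2-fold and 1 differed 1.5-fold, beside 0.593% and 4.35% of all clusters. The signal was above untreated CHO-K6 for 39 of 52 members (75.0%), beside 54.7% of all clusters and 59.1% of the brighter genes, with a median of 0.16 against 0.04 over all clusters. Alg3 had the highest value (0.56), followed by Neu3 (0.52), Slc35a2 (0.47), St6galnac6 (0.46), St6galnac4 (0.44), Mogs (0.40), St3gal3 (0.39), B4galt2 (0.35), Alg12 and the dim Mgat3 (0.34 each) and B4galt3 (0.33). All 6 oligosaccharyltransferase subunits (0.03 to 0.21), all 3 genes of glucose trimming and folding check (0.16 to 0.40) and 7 of 8 sialyltransferases were above 0.

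The 13 members below untreated CHO-K6 with pertuzumab (25.0%, beside 43.8% of all clusters) included 4 of the 6 sialic acid supply genes. Cmah had the lowest value (−0.64), but −0.14 in its further cluster. Nanp was at −0.41, with 7.59 with pertuzumab and 8.0 untreated in CHO-K6, Slc35a1 at −0.31 and Cmas at −0.12, while Gne (0.28) and Nans (0.24) were above 0. The median of this step was −0.21, beside 0.04 over all clusters. The UDP-N-acetylglucosamine transporter gene Slc35a3 was at −0.51, Man1a2 and Fut8 at −0.26, and Man1a1 and St3gal6 at −0.22. The dim Mgat4a was at −0.54, but at −0.18 in its further cluster.

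With the combination in CHO-K6, no member differed 2-fold or 1.5-fold from untreated cells, beside 0.118% and 1.55% of all clusters, and the median was 0.03. The values ranged from −0.48 for Mgat4a, whose further cluster had 0.32, to 0.28 for Alg3. Apart from Mgat4a, the most negative were B4galt4 (−0.29), Man1a1 (−0.24), Mgat1 and Nanp (−0.20 each), and after Alg3 the most positive were St6galnac4 (0.23), St6galnac6 and Mgat3 (0.21 each). The 3 treatments are read against the same untreated array, at 9.78 for Alg3, so that these values are not independent of each other. Each treated CHO-K6 array was also set against the average of the remaining treated ones. Alg3 then had −0.13 with trastuzumab, 0.28 with pertuzumab and −0.14 with the combination. These 3 values come from the same 3 arrays and cancel out by construction, so they are no independent check. The line difference of the untreated pair also holds the untreated CHO-K6 array.

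In CHO-K1, which has no human HER2, the combination gave no 2-fold or 1.5-fold difference in any member, beside 0.249% and 3.01% of all clusters. The median was 0.07, beside 0.02 over all clusters, and 32 members were above 0 (61.5%, beside 52.5% of all clusters and 53.4% of the brighter genes). Cmah was at 0.53 (5.02 with the combination, 4.49 untreated), both arrays being below the median of all clusters, and at −0.17 in its further cluster. St6galnac6 (0.33), Neu3 (0.32), Mgat1 (0.31), Mogs and St3gal3 (0.30 each) were the next highest. Slc35a3 was the lowest at −0.47, with 8.33 with the combination and 8.80 untreated, followed by Man1a1 (−0.25), Nanp (−0.24) and Man1a2 (−0.23).

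**Figure D3:**
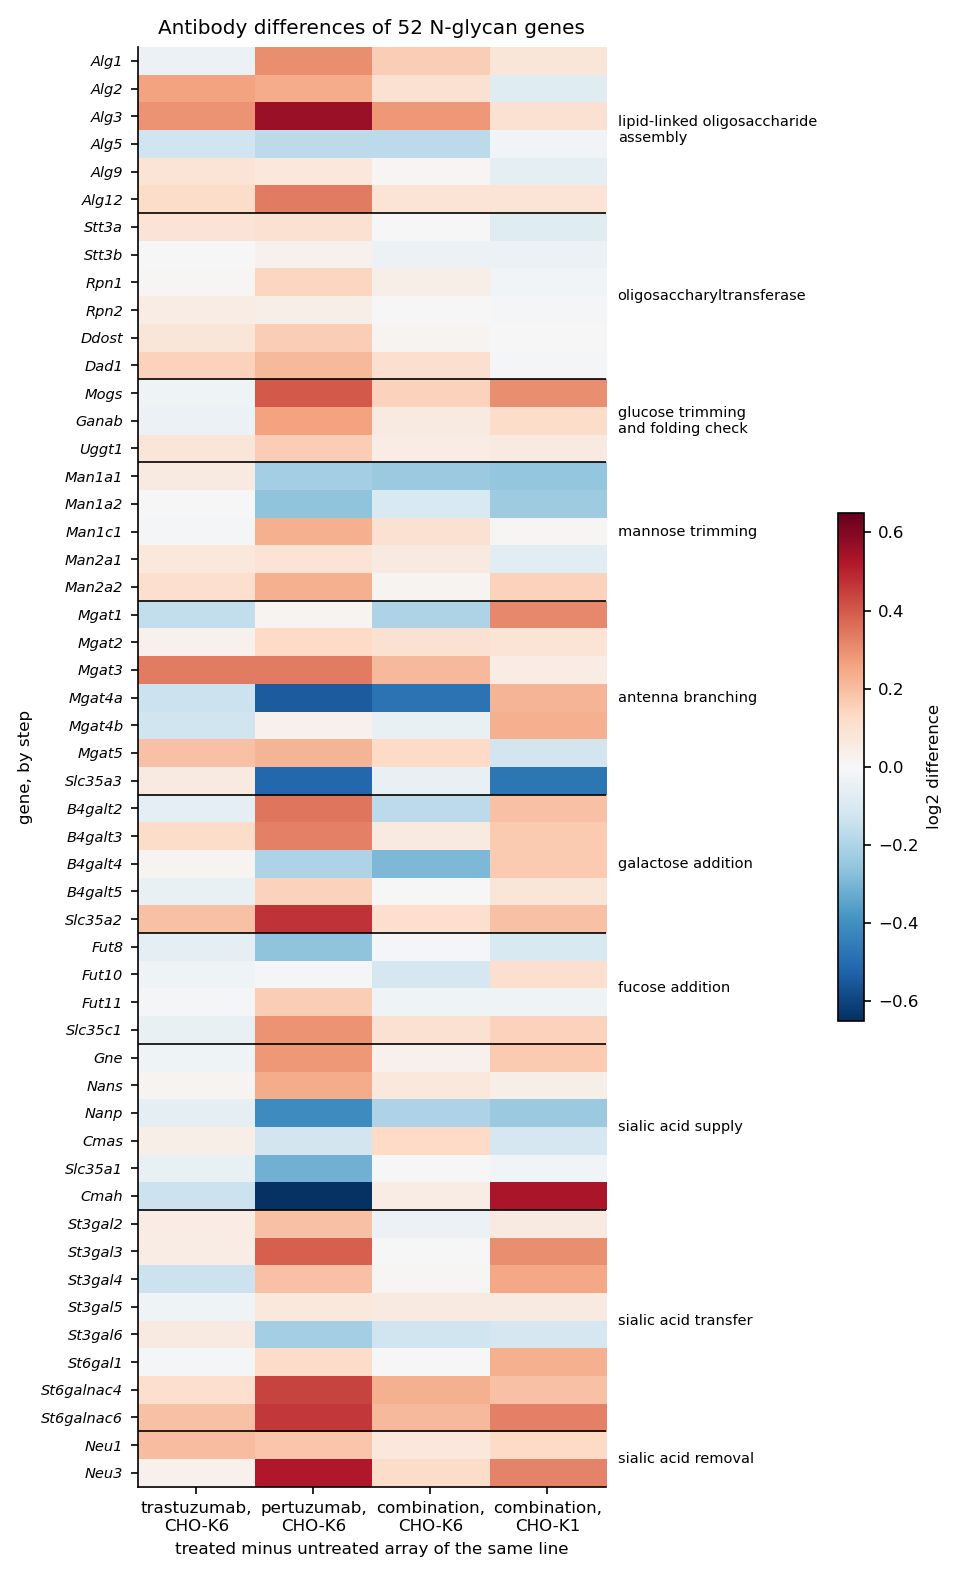
Log2 difference of each antibody-treated array from the untreated array of the same line (colour scale) for the 52 members by step, with the columns trastuzumab, pertuzumab and combination in CHO-K6 and combination in CHO-K1. The pertuzumab column is mostly red, with 39 of 52 members above 0, and Cmah (−0.64), Mgat4a (−0.54) and Slc35a3 (−0.51) stand out in blue. The further clusters of Cmah (−0.14) and Mgat4a (−0.18) are not drawn.

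Pertuzumab was also set directly against trastuzumab in CHO-K6, which leaves the untreated array out. No member differed 2-fold or 1.5-fold in this comparison, beside 0.768% and 4.49% of all clusters, and 35 members were higher (67.3%, beside 55.7% of all clusters and 56.5% of the brighter genes) and 16 lower with pertuzumab. Neu3 (0.49), Mogs (0.43) and B4galt2 (0.41) were highest, and Slc35a3 (−0.57), Cmah (−0.50), Mgat4a (−0.40) and Nanp (−0.35) lowest. The further cluster of Cmah was at 0.04, so the lower Cmah signal was not seen there, and that of Mgat4a was at −0.33. This comparison shares no array with the combination against untreated CHO-K1. Of 50 members with a difference other than 0 in both, 39 had the same sign (78.0%), 27 above and 12 below 0, beside 78.8% of the brighter genes. Pearson's r was 0.51 and Spearman's rho 0.61 across the 52 members, and 0.68 and 0.67 across the brighter genes. Genes are not independent replicates, and the points of each axis come from the same 2 arrays. The share of equal signs among the members was thus close to that among the brighter genes.

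**Figure D4:**
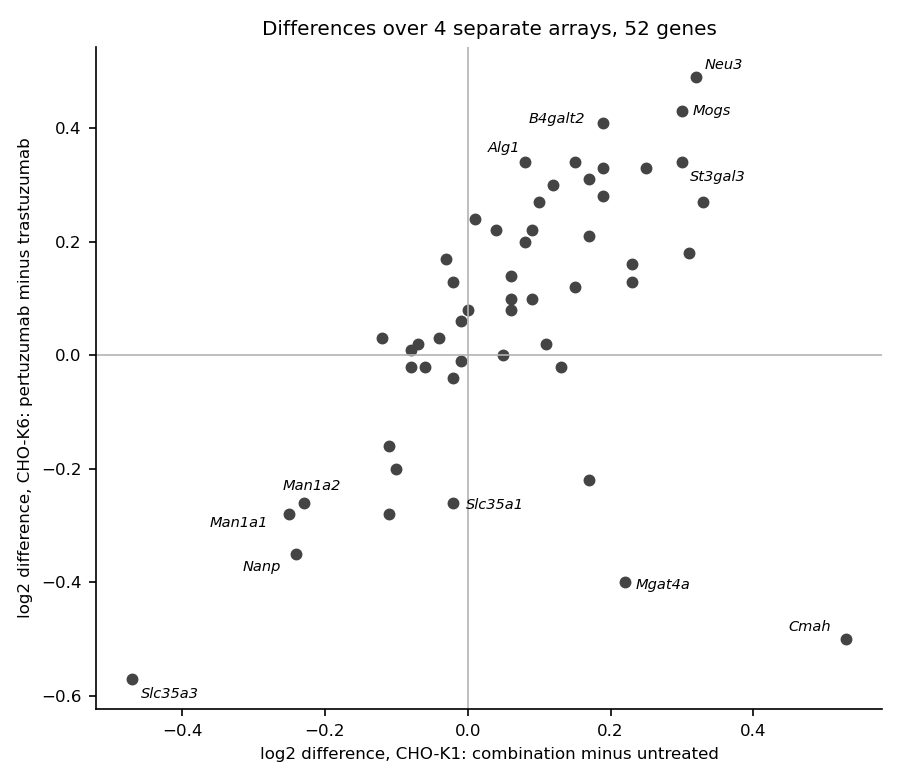
Each point is 1 of the 52 members, with the log2 difference of combination minus untreated CHO-K1 on the horizontal axis and of pertuzumab minus trastuzumab in CHO-K6 on the vertical axis. Slc35a3 is low on both axes (−0.47 and −0.57) and Neu3 high on both (0.32 and 0.49), whereas Cmah is at 0.53 and −0.50. The further cluster of Cmah, which is not drawn, had −0.17 and 0.04.

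The members differ widely in the span of their genes, and the line differences went with the span. In the RefSeq annotation of the assembly CriGri-PICRH-1.0, in which all 52 members were found, the span ran from 1.34 kb for Mgat1 to 292 kb for Mgat5. Spearman's rho between span and line difference across the members was 0.66 between the untreated and 0.65 between the combination arrays, beside 0.30 and 0.37 across the brighter genes. Of 15 members that span less than 10 kb, 13 had a lower signal in untreated CHO-K6 (86.7%, beside 68.5% of 2428 brighter genes of that span), among them Slc35c1 (3.89 kb), Fut11 (3.97 kb), Mogs (3.46 kb) and St3gal4 (6.83 kb). Of 16 members that span 50 kb or more, 12 had a higher signal (75.0%, beside 63.5% of 2364 brighter genes), among them Man1a1 (173 kb), Fut8 (207 kb) and Cmah (99.5 kb). The other mannose trimming genes with a higher signal, Man1a2 (129 kb), Man1c1 (140 kb) and Man2a1 (152 kb), are also among them. Man2a2, the lower gene of that step, spans 20.5 kb. Between the combination arrays, 14 of the 15 short genes were lower (93.3%, beside 73.4% of the brighter genes) and 10 of the 16 long genes higher (62.5%, beside 66.8%), so the long members were then no more often higher than the brighter genes. Of 21 members from 10 kb to below 50 kb, 13 were lower between the untreated arrays (61.9%, beside 48.8% of 4271 brighter genes). Between the combination arrays 14 of them were lower (66.7%, beside 51.0%). For pertuzumab minus trastuzumab rho was −0.35, and for the combination in CHO-K1 −0.32, beside −0.31 and −0.30 across the brighter genes. These are descriptions across genes on the same arrays, and the part of gene span, or of anything that goes with it, in the differences was not tested.

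**Figure D5:**
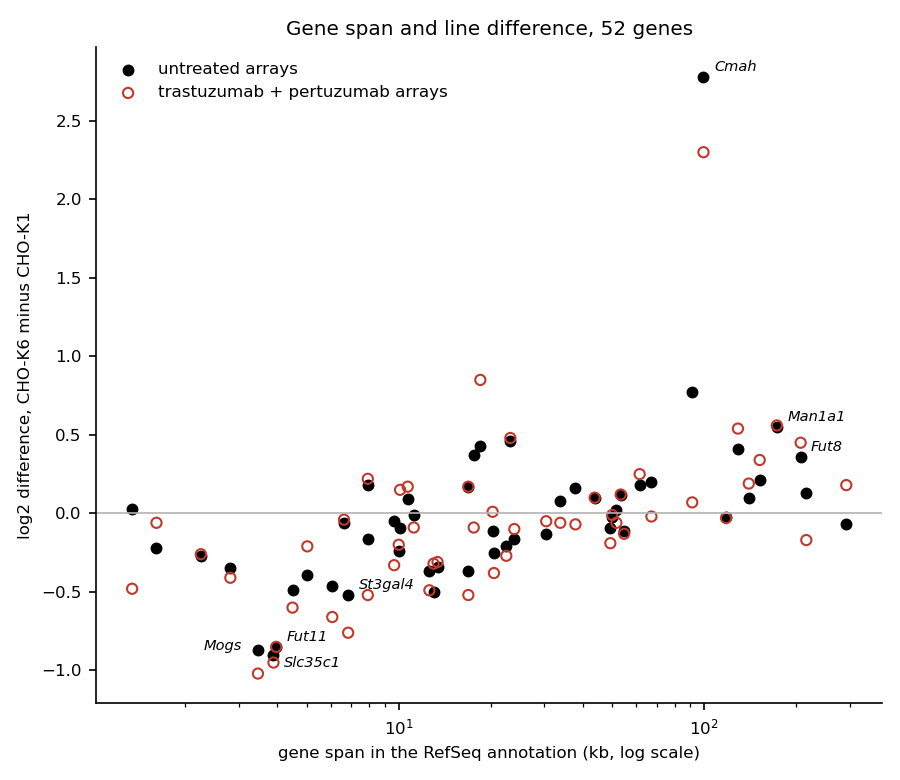
Gene span in kb on a log scale (horizontal axis) and log2 difference of CHO-K6 minus CHO-K1 (vertical axis) for the 52 members, between the untreated arrays (filled) and the combination arrays (open). Members under 10 kb lie mostly below 0, such as Mogs at −0.87 and −1.02. Those from 10 kb to below 50 kb also lie more often below 0 than above it. Members of 50 kb or more, such as Man1a1 (0.55 and 0.56), lie mostly above 0.

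Beyond the members, 96 further genes of the same pathways were listed from textbook knowledge, of which 70 had a transcript cluster of their own. Between the untreated lines 1 of them differed 2-fold (1.43%, beside 2.1% of all clusters) and 4 differed 1.5-fold (5.71%, beside 9.64%), 2 in each direction. Neither share exceeded that of all clusters. The 2-fold gene was Neu2, the cytosolic sialidase, which had 8.17 with trastuzumab, 8.49 with pertuzumab, 8.37 with the combination and 8.24 untreated in CHO-K6, against 9.58 with the combination and 9.64 untreated in CHO-K1. Its line difference was −1.40 untreated and −1.21 with the combination, and the lines were 1.09 apart. All 3 measured sialidase genes thus had lower signals in CHO-K6 in both pairs. Each pair taken alone, 53.2% of all clusters were lower untreated and 56.4% with the combination. Of all 14899 genes, 6549 were lower in both pairs. The lines overlapped for Neu3. The others at 1.5-fold were Ugp2, which makes UDP-glucose (0.64 and 0.63), Manea, an endomannosidase of the Golgi apparatus (0.63 and 0.65), and Gmppb, which makes GDP-mannose (−0.68 and −0.36).

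Between the combination arrays 8 of the 70 genes differed 1.5-fold (11.4%, beside 12.1% of all clusters), 3 upward and 5 downward, among them Cog5 of the Golgi tethering complex (0.76), Dpm3, a subunit of dolichol-phosphate-mannose synthase (−0.63), and the galactokinase gene Galk1 (−0.60). No further gene differed 1.5-fold with trastuzumab, pertuzumab or the combination in CHO-K6. For pertuzumab minus trastuzumab 1 did, the fucose pathway gene Fpgt (−0.60). In CHO-K1 the combination gave 1 such difference, in Mgat4c (0.69). Its signals of 2.93 with the combination and 2.24 untreated lay below the array medians. With pertuzumab, 64.3% of the 70 genes were above untreated CHO-K6, beside 75.0% of the members and 59.1% of the brighter genes. Against trastuzumab, 58.6% of the 70 were higher with pertuzumab, beside 67.3% of the members and 56.5% of the brighter genes.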

How the data were processed

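RNA from 6 cell cultures, 1 per condition, was hybridised to 1 Affymetrix CHO Gene ST array each. The deposited values are log2 signals per transcript cluster, made by the authors with Affymetrix Expression Console and Transcriptome Analysis Console per the labels. The normalization method is not given in the sources used here, and the signals were used as deposited. Of 29700 clusters, 16481 were annotated to 1 gene symbol, 793 to several and 12426 to none in the platform annotation. No test was run, since each condition had 1 array, and the number of arrays limits the precision. A fit of line and treatment over all 6 arrays, which would rest on the treatments acting alike in both lines, was not run.

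Differences between pairs of arrays were computed in Python 3.11.15 with pandas 2.3.3, NumPy 2.4.6 and SciPy 1.17.1 for 7 comparisons. A difference was called at 2-fold (1 on the log2 scale), with 1.5-fold as a second threshold, and a log2 signal below 6 was called low. By rule, values were given for members 2-fold apart in any comparison or with a gap of 0.3 between the lines, for the member of each step with the highest mean signal or the largest difference in a comparison, and for Cmah, St6gal1, Mgat3, Man1c1, Gne, Slc35a1, Mgat5 and Fut8. The remaining members were named besides, after their values were seen. Other glycosylation genes were named at 1.5-fold with a signal of 6 or more, and Mgat4c, which is dimmer, after its value was seen. The script was tested on simulated data. Members and lists were chosen with earlier results of these data known, and the description by gene span (RefSeq annotation, CriGri-PICRH-1.0) was added after seeing the data, with limits of 10 and 50 kb. Alternatives were the second threshold, quantile normalization, median centring, the mean over clusters, other reference arrays and the series matrix table, which held 30934 clusters and differed by at most 0.005.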

Additional observations from a re-analysis of the deposited data

Results flagged for a closer look

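For 4 members the combination gave differences of opposite sign in the lines, each at least 0.15 in size (7.69%, beside 9.6% of all clusters and 2.57% of the genes with a mean log2 signal of at least 6). Several of these values are smaller than 0.22, the SD of the difference between the CHO-K1 arrays over brighter clusters. The difference between the lines' responses was not tested, since each condition had 1 array. Mgat1 differed from untreated cells by −0.20 in CHO-K6 and by 0.31 in CHO-K1, which sets the lines apart by −0.51. The dim Mgat4a had −0.48 in CHO-K6 and 0.22 in CHO-K1 (−0.70 between the lines), but its further cluster had 0.32 in CHO-K6 and 0.27 in CHO-K1, without a change of sign. The galactosyltransferase genes B4galt2 (−0.17 in CHO-K6, 0.19 in CHO-K1, −0.36 between the lines) and B4galt4 (−0.29 in CHO-K6, 0.17 in CHO-K1, −0.46 between the lines) had the same pattern.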

How the results depend on the processing

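At 1.5-fold in place of 2-fold, the number of members past the threshold was 5 in place of 1 between the untreated lines, 8 in place of 2 between the combination arrays and 1 in place of 0 with pertuzumab in CHO-K6. With the combination arrays in place of the untreated ones, 2 members differed 2-fold between the lines in place of 1. With a gap of at least 0.3 required, 2 members lay above and 5 below in CHO-K6, in place of 12 and 12. The sialic acid supply genes had a mean line difference of 0.51 untreated and 0.46 with the combination, against medians of 0.13 and 0.18. The sialidases had a median of −0.11 with trastuzumab and −0.14 with the combination when set against the other antibody-treated CHO-K6 arrays, in place of 0.12 and 0.10 against the untreated array, so their direction depends on the reference. Alg3 likewise had −0.13 with trastuzumab and −0.14 with the combination in this reading, but 0.28 with pertuzumab. The cause was not tested. Quantile normalization, median centring and the series matrix table moved 0 of 364 gene differences by more than 0.22, the SD of the difference between the CHO-K1 arrays over clusters with a mean signal of 6 or more. Averaging all clusters of a gene moved 6 of 364, and the other antibody-treated arrays as reference moved 31 and left 125 within that size. Of the 52 untreated line differences, 13 moved with the combination arrays in their place and 4 with the mean of the 4 CHO-K6 arrays against that of the 2 CHO-K1 arrays. The line differences were read in each pair of like-treated arrays, and no fit with treatment as a block was run.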
